A study of Caenorhabditis elegans with 48 samples.

Results

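*pdf-1*, *pdf-2* and *pdfr-1* encode the pigment dispersing factor (PDF) neuropeptides of *C. elegans* and their receptor. These 3 genes were taken by name from the 19885 genes with a deposited expression value, and all 3 had a value above 0 in each of the 48 libraries. RNA of whole adult worms had been sequenced at 12 time points of 1 day, every 2 h from CT1 to CT23, where CT is circadian time under constant temperature after entrainment by temperature cycles. The K-NAA group (24 libraries) had been on plates with K-NAA for 12 h when sampling began, and the mock group (24 libraries) had been moved to plates without it. Each time point and condition had 2 culture plates, which were taken as the replicates. Both groups were the strain JDW259, which makes the plant F-box protein TIR1 from the widely active *eft-3* promoter and carries an auxin-inducible degron with a TEV site and a 3xFLAG tag on the endogenous *nhr-23* gene. K-NAA, an auxin analog given in the labels as 0.4 mM, lets TIR1 mark the tagged NHR-23 protein for breakdown. NHR-23 is the worm homolog of the mammalian clock protein ROR. Both groups had also received FUdR, which stops the production of offspring. Worms lacking the degron but kept on K-NAA were not analysed here, and effects of K-NAA itself and of losing NHR-23 cannot be told apart.

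In insects, PDF is released by clock neurons and keeps their daily rhythms in step with each other. Its receptor is a class B G protein-coupled receptor that raises cAMP through the stimulatory G protein Gs. In *C. elegans* the same kind of signal acts in the control of locomotion and arousal: PDF peptides favor roaming over dwelling, against serotonin, and act in the mate searching of males. The comparisons below ask whether mRNA of the ligands and of the receptor followed a 24 h course, and whether their levels differed in K-NAA worms.

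*pdf-1* (WBGene00020317) lies on chromosome III of WBcel235 from 6909590 to 6912481 on the minus strand. It has 3 annotated transcripts with 3 or 4 exons, coding for a precursor of 86 or 88 residues from which PDF-1 peptides are cut. *pdf-2* (WBGene00018590) lies on chromosome X from 2163384 to 2164069 on the plus strand, with 1 transcript of 3 exons and 572 bases that codes for a precursor of 89 residues. *pdfr-1* (WBGene00015735), the receptor gene, spans 19247 bases of chromosome III, from 6632837 to 6652083 on the minus strand. Its 13 transcripts have 13 to 17 exons and code for 5 protein lengths between 516 and 546 residues. The deposited values are given per gene, so the isoforms were not compared. A pair of short noncoding RNA genes, *M01G4.6* and *C13B9.5*, lies on the opposite strand within *pdfr-1*, and the libraries were strand-specific.

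Expression was given as TPM, transcript abundance scaled to a fixed library total and corrected for transcript length, so that levels of different genes can be compared. The ligand gene *pdf-1* was the highest of the 3. In K-NAA worms its libraries ran from 19.6 TPM over a median of 27.6 to 31.3 TPM, and in mock worms from 19.1 TPM over a median of 27.95 to 36.3 TPM. *pdf-1* was above both other genes in all 48 libraries, with a mean ratio to *pdf-2* of 4.03 ± 1.26 in K-NAA and 3.36 ± 0.830 in mock (SD, n = 24 libraries each). *pdf-2* ran from 4.01 TPM over a median of 7.10 to 11.6 TPM in K-NAA, and from 4.84 TPM over a median of 8.99 to 10.7 TPM in mock. *pdfr-1* ran from 4.69 TPM over a median of 6.22 to 8.23 TPM in K-NAA, and from 4.39 TPM over a median of 7.38 to 9.32 TPM in mock. The order of *pdf-2* over *pdfr-1* was not steady: *pdf-2* was the lower of the pair in 7 of 24 K-NAA libraries and in 3 of 24 mock libraries.

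Among all 19885 genes, *pdf-1* ranked 4680 by its mean over the 48 libraries (27.5 TPM), *pdf-2* ranked 7295 (7.90 TPM) and *pdfr-1* ranked 7581 (6.77 TPM). Neuropeptide genes of the FMRFamide-like (*flp*) and neuropeptide-like (*nlp*) families gave a closer frame. Of 105 such genes, 16 were higher than *pdf-1* and 61 were higher than *pdf-2*.

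**Figure D1:**
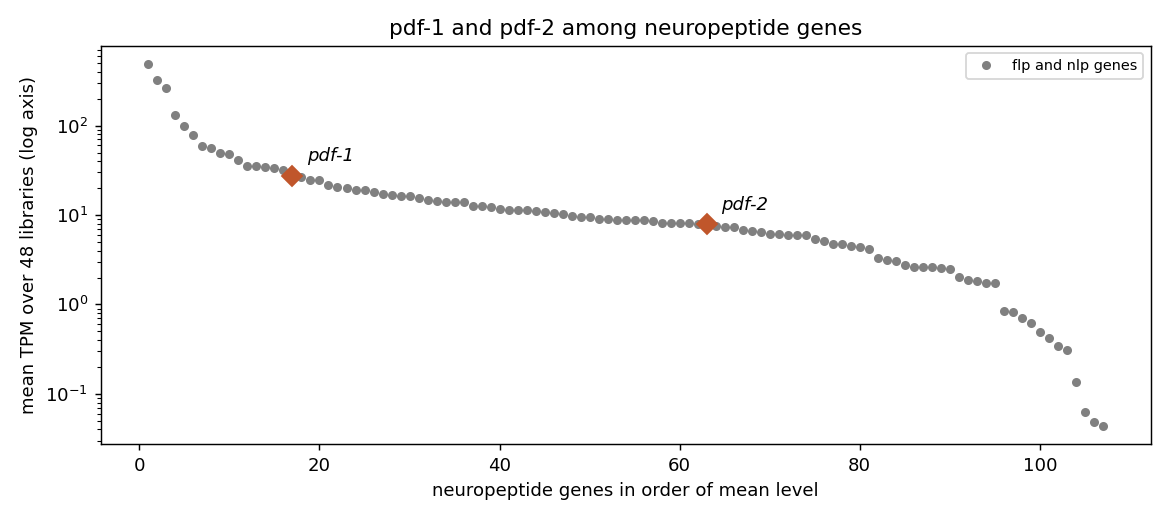
Mean TPM over the 48 libraries (log axis) of the 105 *flp* and *nlp* genes (grey points) and of *pdf-1* and *pdf-2* (orange diamonds), in order of level. *pdf-1* at 27.5 TPM stands below 16 of the 105 genes, and *pdf-2* at 7.90 TPM stands below 61.

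The libraries all sum to the same total in TPM and keep no depth, so the spread between plates is the only measure of precision. For *pdf-1* the SD between the plates of a time point, in log2(TPM + 0.5), was 0.17 in K-NAA and 0.13 in mock. For *pdfr-1* it was 0.18 in K-NAA and 0.20 in mock. *pdf-2* was the least repeatable of the 3, at 0.22 in K-NAA and 0.35 in mock. At CT7 the 2 mock plates of *pdf-2* read 4.84 and 10.7 TPM. The 12 neuron markers were above 0 in all 48 libraries, as were the 8 markers each of body wall muscle, intestine and germline and 6 of 8 of hypodermis. RNA came from whole worms, in which fewer PDF cells and less RNA per cell cannot be told apart.

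The level over the whole day was compared first, with limma and the time point as a factor. *pdf-2* and *pdfr-1* were lower in K-NAA worms and *pdf-1* did not pass the test. The ligand gene *pdf-2* averaged 7.15 ± 1.73 TPM in K-NAA and 8.65 ± 1.63 TPM in mock (SD, n = 24 each). The log2 difference was -0.27 (standard error 0.086, 95% interval -0.44 to -0.10, adjusted p = 0.0150 from limma), a fold of 0.829. It was lower in K-NAA at 9 of 12 time points, and at 4 of them both K-NAA plates were below both mock plates. The receptor gene *pdfr-1* averaged 6.33 ± 0.938 TPM in K-NAA and 7.21 ± 1.24 TPM in mock (SD, n = 24 each), a log2 difference of -0.17 (standard error 0.054, 95% interval -0.28 to -0.06, adjusted p = 0.0157 from limma) and a fold of 0.889. It was lower at 10 of 12 time points, without overlap of the plates at 5. *pdf-1* averaged 27.1 ± 3.05 TPM in K-NAA and 27.999 ± 3.26 TPM in mock (SD, n = 24 each). Its log2 difference of -0.05 had a 95% interval from -0.14 to 0.05 (adjusted p = 0.493 from limma), with K-NAA lower at 7 of 12 time points. Both its K-NAA plates were below both mock plates at 5 time points and above them at 2. The count of time points below thus does not by itself set the called genes apart, and its share over all genes was not counted.

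Lower levels in K-NAA were common across the transcriptome: of 13813 genes tested, 2741 (19.8%) were lower and 1309 (9.48%) were higher at an adjusted p under 0.05 from limma. So 2 of 3 PDF genes passed in the direction that held 19.8% of all genes. That split moved with the scaling: after median ratio rescaling 2182 genes were higher and 1961 lower, and after quantile normalization 2004 were higher and 2071 lower. Under these scalings the log2 difference was -0.23 and -0.25 for *pdf-2* and -0.13 and -0.15 for *pdfr-1*, each still called. By size of the difference, 90.6% of all genes had a smaller one than *pdf-2*, 77.3% a smaller one than *pdfr-1* and 27.4% a smaller one than *pdf-1*.

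*pdf-2* differed most at CT17 and CT21. At CT17 its K-NAA plates read 4.13 and 4.01 TPM, against 9.51 and 7.63 TPM in the mock plates, a log2 difference of -0.98. At CT21 they read 4.57 and 6.74 TPM in K-NAA, against 10.1 and 10.01 TPM in mock (log2 difference -0.80). At CT19, between these time points, the K-NAA plates read 7.34 and 11.6 TPM and the mock plates 7.85 and 10.7 TPM, and the groups overlapped. Without CT17 the log2 difference over the remaining day was -0.21 (adjusted p = 0.0693 from limma), and without CT21 it was -0.22 (adjusted p = 0.0544 from limma). Time on K-NAA and the age of the worms rose with CT, so the time of day cannot be told apart from them.

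*pdfr-1* differed most at CT9, where the K-NAA plates read 5.47 and 4.69 TPM and the mock plates 6.31 and 9.32 TPM (log2 difference -0.56). At CT23 they read 5.76 and 5.57 TPM in K-NAA, against 7.79 and 7.51 TPM in mock. The early hours ran the other way or level: at CT5 the log2 difference was 0.18, with overlapping plates. Without CT9 the difference over the day was -0.13 (adjusted p = 0.0512 from limma), and without CT23 it was -0.15 (adjusted p = 0.0538 from limma). For *pdf-1* the plates stood apart in both directions, with both K-NAA plates lower at 5 time points and higher at 2, CT13 and CT21. A test of the difference between conditions by time point, chosen after these values were seen, gave unadjusted p of 0.149 for *pdf-1*, 0.198 for *pdf-2* and 0.458 for *pdfr-1* (adjusted p = 0.99999 each from limma). In that test 4 of 13813 genes passed at 0.05.

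**Figure D2:**
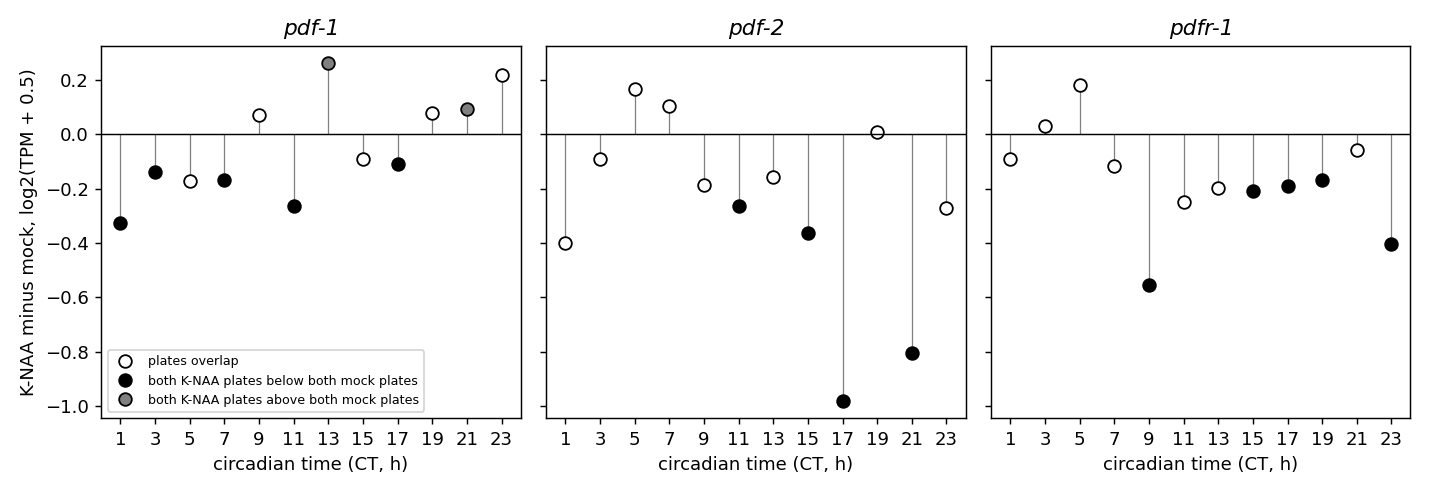
Difference of K-NAA minus mock in log2(TPM + 0.5), each the mean of 2 plates, against circadian time in hours for *pdf-1*, *pdf-2* and *pdfr-1*. Black points mark time points at which both K-NAA plates were below both mock plates (5, 4 and 5 time points), grey points those at which both were above (2 for *pdf-1*), and open points those with overlapping plates; the lowest value is -0.98, for *pdf-2* at CT17.

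The level difference was also read by plate number, without a test between the sets. In replicate 2, *pdfr-1* averaged 6.42 ± 0.971 TPM in K-NAA and 7.69 ± 1.07 TPM in mock (SD, n = 12 each). In replicate 1 it averaged 6.24 ± 0.938 TPM in K-NAA and 6.74 ± 1.26 TPM in mock. Without replicate 2 the log2 difference was -0.09 (adjusted p = 0.382), while leaving out replicate 1 gave -0.24 (adjusted p = 0.0284, both from limma). *pdf-2* kept a like difference in both sets, with 7.66 ± 1.97 TPM in K-NAA and 9.20 ± 1.52 TPM in mock in replicate 2, and 6.65 ± 1.36 TPM in K-NAA and 8.10 ± 1.61 TPM in mock in replicate 1. Without replicate 2 its log2 difference was -0.27 with an adjusted p of 0.187 from limma.

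**Figure D3:**
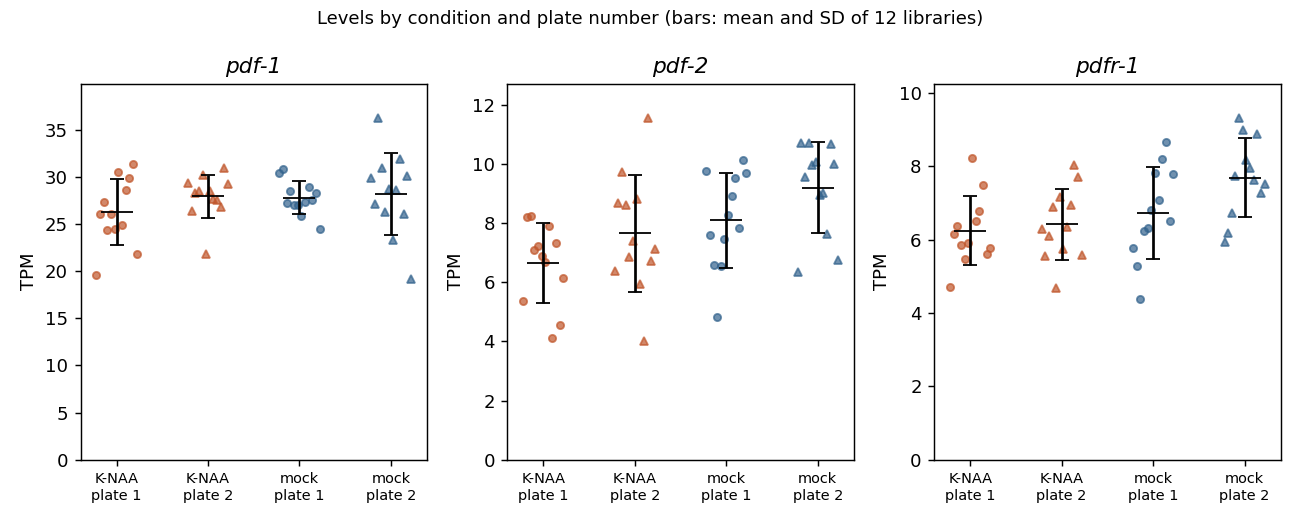
TPM of *pdf-1*, *pdf-2* and *pdfr-1* in each library, by condition and plate number (12 libraries each, in order of time from left to right within a column), with mean and SD as black bars. For *pdfr-1* the mock plates numbered 2 average 7.69 TPM, above the other 3 sets at 6.42, 6.24 and 6.74 TPM.

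Within mock worms, replicate 2 was above replicate 1 for *pdfr-1* at 10 of 12 time points, with a log2 difference of 0.19 (standard error 0.065, adjusted p = 0.0617 from limma) that did not pass 0.05. *pdf-2* gave 0.18 (adjusted p = 0.378) and *pdf-1* gave 0.01 (adjusted p = 0.956). None of the 3 passed this comparison, in which 2240 genes (16.2%) were higher and 96 (0.695%) were lower in replicate 2 (773 and 634 after median ratio rescaling, 840 and 326 after quantile normalization). Within K-NAA worms the log2 differences of replicate 2 against replicate 1 were 0.18 for *pdf-2* (adjusted p = 0.219), 0.09 for *pdf-1* (adjusted p = 0.411) and 0.04 for *pdfr-1* (adjusted p = 0.829, all from limma). There 0 of 13813 genes (0%) passed in limma and 2748 had an unadjusted p under 0.05.

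Levels of neuron markers gave the frame for genes expressed largely in neurons. The summed TPM of the 12 neuron markers was 341 ± 13.1 in K-NAA (range 316 to 372) and 370 ± 17.2 in mock (range 335 to 401). Most of it came from *snb-1*, which encodes the vesicle protein synaptobrevin and took a median of 80.4% of the sum in K-NAA and 82.2% in mock. Without *snb-1* the sum was 66.6 ± 4.76 TPM in K-NAA and 65.9 ± 6.06 TPM in mock (SD, n = 24 each). Of the 12 markers, *snb-1* was lower, *unc-13* was higher and 10 did not pass, with a median log2 difference of 0.02. Relative to the sum of the markers, the log2 difference was -0.16 for *pdf-2* (adjusted p = 0.129), -0.06 for *pdfr-1* (adjusted p = 0.407) and 0.07 for *pdf-1* (adjusted p = 0.234). Relative to their geometric mean, in which each marker counts alike, it was -0.28 for *pdf-2* (adjusted p = 0.0135), -0.18 for *pdfr-1* (adjusted p = 0.00817) and -0.06 for *pdf-1* (adjusted p = 0.314, all from limma). The lower level of *pdf-2* and *pdfr-1* thus held against the markers weighted alike and was not called against their sum. Among the summed markers of other tissues, intestine stood at 9253 ± 538 TPM in K-NAA and 7422 ± 797 TPM in mock, hypodermis at 1216 ± 196 TPM in K-NAA and 1051 ± 181 TPM in mock, and body wall muscle at 655 ± 84.4 TPM in K-NAA and 622 ± 68.6 TPM in mock (SD, n = 24 each). Most of the intestine sum was yolk protein RNA, with *vit-2* at 6128 TPM in K-NAA and 4920 TPM in mock and *vit-5* at 2689 TPM in K-NAA and 2087 TPM in mock, and these 2 were the only intestine markers of 8 that passed the test of level. Germline stood at 2800 ± 110 TPM in K-NAA and 2803 ± 117 TPM in mock. The part of these tissues in the PDF gene levels was not tested.

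The 24 h course was fitted next, in each condition by itself, as a cosine curve on log2(TPM + 0.5). Its range is the distance from trough to peak on that log2 scale. In mock worms, only the receptor gene *pdfr-1* of the 3 passed the threshold of 0.30 on the adjusted p. The study set the same number on the q value of a different periodicity test, BioCycle, so calls of the 2 tests cannot be equated. *pdfr-1* had a range of 0.45 (standard error 0.11, adjusted p = 0.0940 from limma), a fold of 1.36 from trough to peak, with the peak at CT15.4. It did not pass 0.05. The ligand genes had ranges of 0.21 for *pdf-2* (standard error 0.16, adjusted p = 0.797) and 0.10 for *pdf-1* (standard error 0.098, adjusted p = 0.884). Of all 13813 genes, 1611 (11.7%) passed 0.30 and 155 (1.12%) passed 0.05 in mock. By p, 2.11% of genes came before *pdfr-1*.

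The mock time points behind this fit averaged 5.56 to 5.85 TPM from CT1 to CT5 and 6.89 to 8.78 TPM from CT7 to CT23. In mock plates *pdfr-1* averaged 7.79 ± 0.662 TPM from CT13 to CT23 and 6.64 ± 1.43 TPM from CT1 to CT11 (SD, n = 12 libraries each). Its lowest time points were CT5, with 4.39 and 6.73 TPM, CT3, with 5.28 and 6.17 TPM, and CT1, with 5.76 and 5.93 TPM. Its highest was CT19, with 8.67 and 8.89 TPM. The plates differed in the hours between: at CT9 replicate 2 read 9.32 TPM and replicate 1 read 6.31 TPM, and at CT11 they read 8.99 and 6.80 TPM, while at CT13 they lay close, at 8.17 and 7.81 TPM. At CT23 the plates read 7.79 and 7.51 TPM, above both plates of CT1. When the fit also held a linear drift, the range of *pdfr-1* was 0.30 (adjusted p = 0.711 from limma), and 2 genes in all passed. With 1 day sampled, a slow drift and a 24 h rhythm cannot be told apart. In the plates of 1 replicate alone, where 0 genes in all passed 0.30 in limma with replicate 1 and 13 with replicate 2, a loss of the call says little. The range of *pdfr-1* was 0.59 with a peak at CT16.8 in replicate 1 and 0.40 with a peak at CT13.3 in replicate 2.

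**Figure D4:**
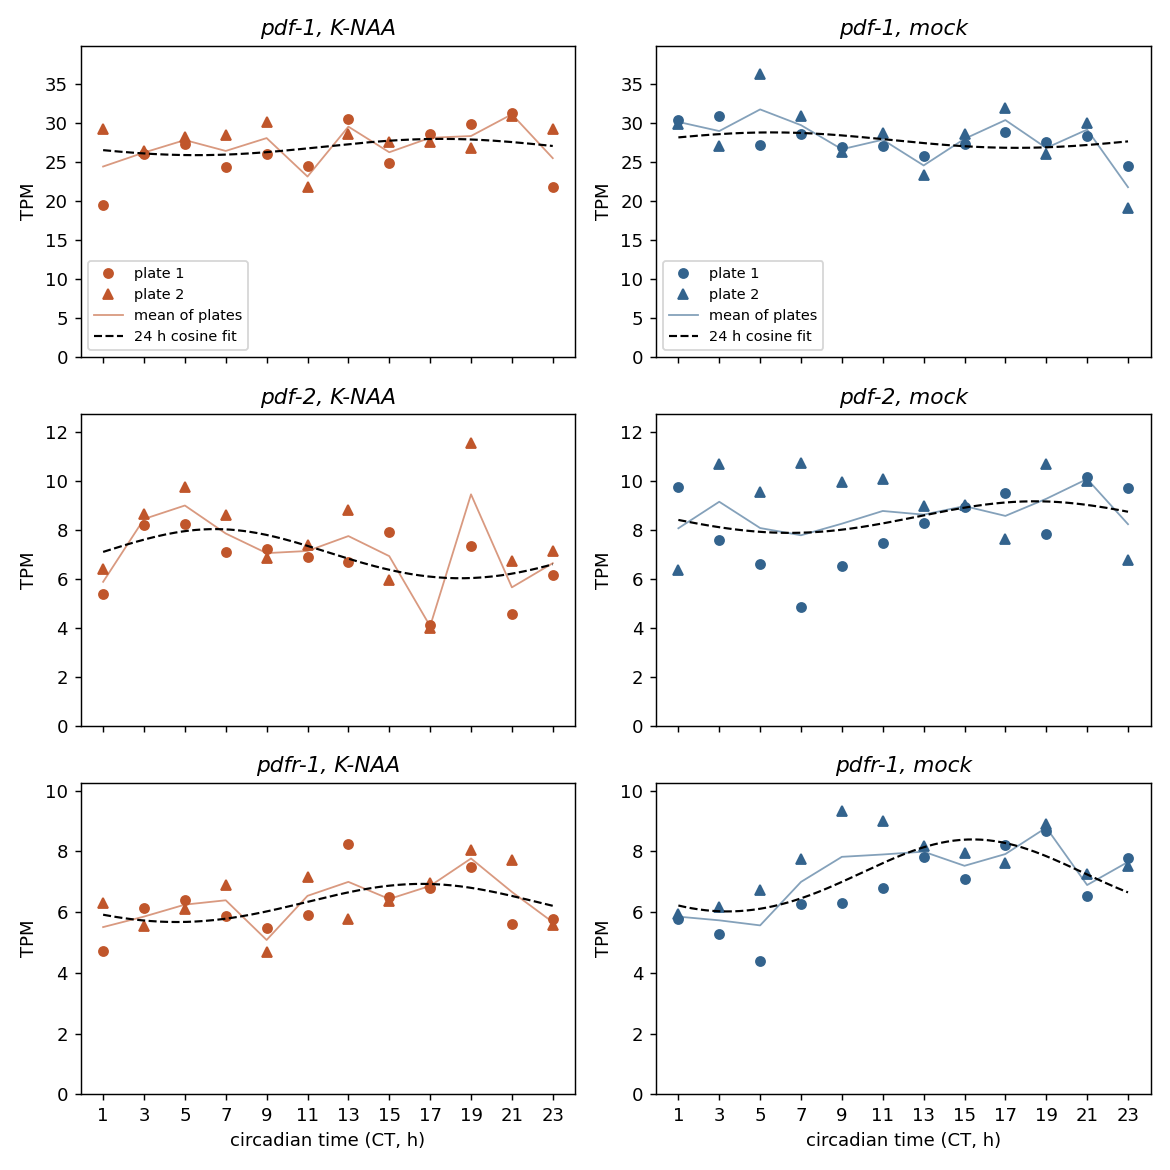
TPM of *pdf-1*, *pdf-2* and *pdfr-1* (rows) against circadian time in hours in K-NAA (left) and mock worms (right): circles are plate 1, triangles plate 2, thin lines the mean of the plates and dashed lines the 24 h cosine fit. The curve of *pdfr-1* in mock is the only one with an adjusted p under 0.30 from limma. Its range is 0.45 on the log2 scale, with a peak at CT15.4. The K-NAA plates of *pdf-2* drop to 4.13 and 4.01 TPM at CT17.

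In K-NAA worms no PDF gene passed 0.30. *pdfr-1* had a range of 0.27 (standard error 0.11, unadjusted p = 0.0568, adjusted p = 0.685 from limma), with a peak at CT16.6. Its later plates were again the higher ones, at 6.73 ± 0.964 TPM from CT13 to CT23 against 5.93 ± 0.753 TPM from CT1 to CT11 (SD, n = 12 each). *pdf-2* had a range of 0.39, its peak lying at CT6.47 (adjusted p = 0.762), and *pdf-1* a range of 0.11 (adjusted p = 0.945). Of all genes, 103 (0.746%) passed 0.30 in K-NAA. The *pdf-2* fit moved with the CT19 plates: without CT19 its range was 0.64 (adjusted p = 0.204), and without the CT19 plate at 11.6 TPM alone it was 0.55 (adjusted p = 0.255, both from limma), past 0.30 in each case.

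A call in mock and none in K-NAA is not a difference, so the difference in the 24 h curves was tested itself. For *pdfr-1* the curves differed by a range of 0.21 (standard error 0.15, unadjusted p = 0.395). The difference was largest for *pdf-2*, at 0.59 (standard error 0.24, unadjusted p = 0.0575), whose peaks were at CT6.47 in K-NAA and CT18.4 in mock, both from fits that passed no threshold. For *pdf-1* it was 0.21 (standard error 0.14, unadjusted p = 0.328). The adjusted p was 0.9999 for each of the 3 from limma. Across the transcriptome 1 gene (0.00724%) passed 0.05 in limma, and 667 genes (4.83%) had an unadjusted p under 0.05.

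Of the pairs among the 3 genes, *pdf-2* with *pdfr-1* had the highest correlation over all 48 libraries, with a Pearson's r of 0.40 and a Spearman's rho of 0.43, while r was 0.11 for *pdf-1* with *pdf-2* and 0.05 for *pdf-1* with *pdfr-1*. Over the 24 K-NAA libraries, Pearson's r in log2(TPM + 0.5) was 0.14 for *pdf-2* with *pdfr-1*, 0.31 for *pdf-1* with *pdfr-1* and -0.01 for *pdf-1* with *pdf-2*. Over the 24 mock libraries it was 0.46, -0.24 and 0.14 for the same pairs. These are descriptions over libraries that share time points and a fixed TPM total.

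Of 11209 genes that averaged 1 TPM or more, those most like each PDF gene were named by Pearson's r over all 48 libraries. For *pdfr-1* they were *sinh-1* (r = 0.74), *upp-1* (0.73), *K09H9.7* (0.71), *pigk-1* (0.71) and *Y55F3BR.2* (0.71). Within the conditions alone these r were between 0.51 and 0.66 in K-NAA and between 0.71 and 0.77 in mock. *upp-1* encodes a uridine phosphorylase and *pigk-1* a subunit of the enzyme that attaches GPI anchors. For *pdf-2* they were *tag-321* (0.60), *Y54G11A.9* (0.60), *abhd-11.2* (0.59), *droe-4* (0.58) and *T28A11.2* (0.58). Within the conditions these r were lower in part, between 0.35 and 0.54 in K-NAA and between 0.41 and 0.65 in mock, and the r over all libraries also takes in the level difference between the groups. For *pdf-1* they were *far-8* (0.61), which encodes a fatty acid and retinol binding protein, *Y59H11AR.4* (0.59), *C47B2.2* (0.58), *T02B11.3* (0.56) and *K07D4.9* (0.55), with r between 0.56 and 0.69 within K-NAA and between 0.45 and 0.66 within mock. None of the 15 is a *flp* or *nlp* gene, but these are at most 105 of the 11209 genes compared, so their absence says little.

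The other class B receptor genes were set beside *pdfr-1*. *seb-2* stood at 2.61 ± 0.457 TPM in K-NAA and 2.66 ± 0.337 TPM in mock, and *seb-3* at 0.663 ± 0.158 TPM in K-NAA and 0.632 ± 0.203 TPM in mock (SD, n = 24 each), both below *pdfr-1*. Neither differed in level past 0.05: the log2 differences were -0.03 for *seb-2* (adjusted p = 0.727) and 0.05 for *seb-3* (adjusted p = 0.574, both from limma). In mock, *seb-3* passed 0.30 for a 24 h curve, with a range of 0.47 and a peak at CT6.86 (adjusted p = 0.192), against CT15.4 for *pdfr-1*.

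Downstream of the receptor, 13 genes of cAMP signaling were tested. In K-NAA, 1 was higher and 3 were lower (9.48% and 19.8% over all genes), with a median log2 difference of 0.01 beside -0.02 over all genes. *crh-1*, which encodes the cAMP response factor CREB, averaged 34.6 ± 3.61 TPM in K-NAA and 41.5 ± 3.39 TPM in mock (log2 difference -0.26, adjusted p = 1.59e-06 from limma). *gpb-1*, a G protein beta subunit, averaged 72.4 ± 4.21 TPM in K-NAA and 84.7 ± 5.82 TPM in mock (log2 difference -0.22, adjusted p = 3.3e-08 from limma). The other lower gene was *ric-8*, a chaperone and exchange factor of G protein alpha subunits (-0.11, adjusted p = 0.0441), and the higher was *kin-2*, the regulatory subunit of protein kinase A (0.14, adjusted p = 0.00768). In mock, 4 of the 13 passed 0.30 for a 24 h curve (11.7% over all genes), with a median range of 0.23 beside 0.16 over all genes. They were *kin-1*, the catalytic subunit of protein kinase A (range 0.29, peak at CT6.85), the cAMP phosphodiesterase gene *pde-4* (0.43, CT9.59), *kin-2* (0.30, CT7.02) and the adenylyl cyclase gene *acy-3* (0.42, CT7.56). All 4 peaks lay at a lower CT than the CT15.4 of *pdfr-1*. On a 24 h cycle this sets no order of the genes, and an order was not tested. With a linear drift added, 0 of the 13 passed in limma.

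Of 16 genes for neuropeptide processing and release, 3 were lower and none was higher in K-NAA, with a median of -0.03. The share that was lower is near the 19.8% over all genes. The 3 were *egl-21*, the carboxypeptidase that trims cut peptides (-0.12, adjusted p = 0.00972), *pgal-1*, a lyase of peptide amidation (-0.12, adjusted p = 0.0139), and the prohormone convertase gene *aex-5* (-0.13, adjusted p = 0.0167, all from limma). *egl-3*, the prohormone convertase that acts on many neuropeptide precursors, averaged 20.4 ± 2.26 TPM in K-NAA and 20.04 ± 2.30 TPM in mock (adjusted p = 0.586). None of the 16 passed 0.30 for a 24 h curve in mock (0 in limma), and *pgal-1* came nearest among the genes named, with a range of 0.20 (unadjusted p = 0.0485).

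Of 11 genes that act with PDF in locomotion state and arousal, 8 were tested, and 2 were lower in K-NAA (median -0.08), beside 19.8% over all genes. *tdc-1*, the tyrosine decarboxylase of tyramine synthesis, averaged 154 ± 11.6 TPM in K-NAA and 167 ± 13.3 TPM in mock (log2 difference -0.11, adjusted p = 0.00135 from limma). *daf-7*, a TGF-beta ligand, averaged 1.12 ± 0.256 TPM in K-NAA and 1.41 ± 0.256 TPM in mock (-0.24, adjusted p = 0.00525 from limma). *tdc-1* alone of the 8 passed 0.30 in mock (11.7% over all genes), with a range of 0.19 and a peak at CT18.5. The neuropeptide gene *flp-21* had a range of 0.39 (adjusted p = 0.404).

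Of 9 clock gene homologs, 1 was higher and 2 were lower in K-NAA, near the 9.48% and 19.8% of all genes. The higher one was *atf-2* (0.25, adjusted p = 0.0104 from limma). The lower ones were *lin-42*, the homolog of *Period* (-0.28, adjusted p = 0.0104), and *nhr-23* (-0.10, adjusted p = 0.0226, both from limma). Breakdown is of the protein, and *nhr-23* mRNA gives no check of the depletion or of the labels. *ces-2*, a bZIP factor gene, was the only one of the 9 past 0.30 in mock (11.7% over all genes). It had a range of 0.96 and a peak at CT20.8 (adjusted p = 0.0634 from limma). Of 101 *flp* and *nlp* genes tested, 8 were lower and 8 were higher in K-NAA, where 19.8% and 9.48% of all genes were. In mock, 7 of the 101 passed 0.30 for a 24 h curve, beside 11.7% of all genes. The median level difference of the 101 was -0.05, beside -0.02 over all genes.

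**Figure D5:**
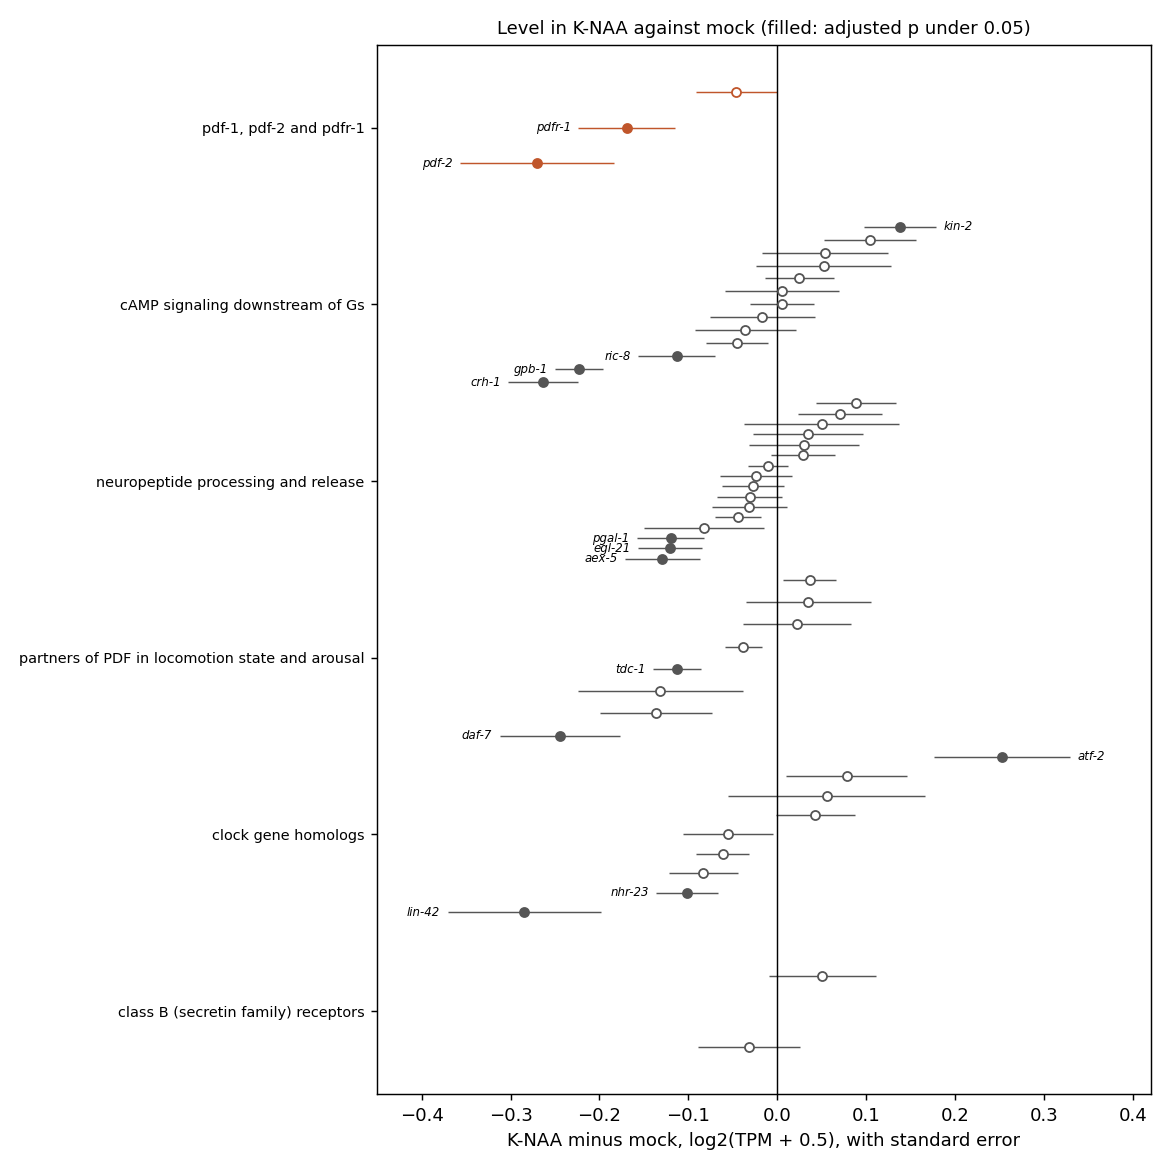
Difference in level of K-NAA minus mock in log2(TPM + 0.5) with its standard error for the 3 PDF genes (orange) and the related genes by list (grey); filled points passed an adjusted p of 0.05. *pdf-2* at -0.27 and *pdfr-1* at -0.17 lie within the span of the related genes, which runs between *lin-42* at -0.28 and *atf-2* at 0.25.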

How the data were processed

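The authors quantified strand-specific polyA RNA libraries of whole worms with Salmon against the WS284 mRNA sequences and deposited TPM values per gene. The summing of transcripts to genes is described in none of the sources used here. The build in the submitters' processing notes is ce10, and the positions given here, from the Ensembl annotation of WBcel235, were not matched to reads. The authors' BioCycle columns (p, q, period, lag and amplitude) were not used. All 48 TPM columns were assigned by condition, time point and replicate.

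Tests used limma 3.58.1 in R 4.3.3 with a mean-variance trend (a choice made after the data were seen) on log2(TPM + 0.5), over 13813 genes that averaged 0.25 TPM or more, and p-values were adjusted by Benjamini-Hochberg. Cosine and sine terms of 24 h were tested by moderated F in each condition. Further tests were of their interaction with the condition, the condition with time point as a factor, and the replicate number within each condition. The fits were tested on simulated data. TPM keeps no depth. Named were the 3 PDF genes, the 5 genes most like each, and in each list the 2 genes with the smallest p of level and of the mock 24 h fit; other genes named were chosen after their values were seen. The members and lists were chosen with earlier results of these data known. The p-values of the tests by replicate number and by time point measure the spread between culture plates. In the level and 24 h fits the error also holds differences over time that the model does not take up. Alternatives were other pseudocounts, filters and scalings, a replicate block, a drift, other periods, time points as a factor, and leaving out replicates, time points and libraries in turn; the scalings by neuron markers were chosen after seeing the data.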

Additional observations from a re-analysis of the deposited data

How the results depend on the processing

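The 18 values of the 3 PDF genes (3 genes in 6 comparisons) were recomputed 873 times in all. In 847 cases direction and side of the threshold held, in 13 a call was lost, in 4 a call was gained and in 9 the sign turned, always for *pdf-1* and never at a called value. The *pdfr-1* 24 h range in mock (0.45, called at an adjusted p under 0.30) was not called with a linear drift (0.30) or a period of 20 h (0.37). The call was also lost with the time points as a factor. There the value of 0.64 is the distance between the lowest and the highest time point, and not a cosine range. The range was not called either with 1 of the replicates left out, which left 0 or 13 genes called in all. It ran from 0.37 to 0.59 with a replicate, time point or library left out. The level difference ran from -0.31 to -0.21 for *pdf-2*, lost without replicate 2, CT17 or CT21, and from -0.24 to -0.094 for *pdfr-1*, lost without replicate 2, CT9 or CT23. Against the summed neuron markers, mostly *snb-1*, the level was -0.16 for *pdf-2*, -0.060 for *pdfr-1* and 0.069 for *pdf-1*. The level of *pdf-1* was 0.0022 under quantile normalization. The *pdf-2* range in K-NAA ran from 0.19 to 0.64 with a replicate, time point or library left out. Against the geometric mean of the neuron markers, the *pdfr-1* range in K-NAA was 0.33 and was called, at an adjusted p under 0.30 from limma. Replicate 2 against replicate 1 in mock ran from 0.15 to 0.21 for *pdfr-1*, called without CT17 only, and from -0.030 to 0.039 for *pdf-1*, for which it was -0.079 after median ratio rescaling and -0.091 after quantile normalization. The cause of these changes was not tested.

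Replicate numbers were checked for pairing across the conditions. The plate differences of K-NAA and mock correlated at -0.07 to 0.18 over the 12 time points, over 0.1 at 1. The numbers thus showed no steady pairing of K-NAA with mock plates. This check does not bear on sets within a condition, for which 2336 genes were called in mock and 0 in K-NAA. With a replicate block the *pdfr-1* range in mock had an adjusted p of 0.0465, which passes 0.05 where the fit without the block did not, and 0.30 as before. The blocked level difference had an adjusted p of 0.0106 for *pdf-2* and 0.0109 for *pdfr-1*, and the block changed no other call of the 3 genes.

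Counts over all genes moved more. Against the summed neuron markers 4504 genes were higher and 730 lower in K-NAA. The 1611 genes called for 24 h in mock were 2 with a drift, 131 at 20 h, 2527 at 28 h, 242 with time points as a factor, 1060 and 4677 against the sum and the geometric mean of the neuron markers, and 0 to 1886 with a replicate, time point or library left out. The 103 in K-NAA were 49 without a filter, 51 without the variance trend, 31, 8, 344 and 198 under the same 4 fits, 49 and 615 against the neuron markers, and 0 to 467 with parts left out. Between the replicates of mock, 2336 genes were called, against 1407 after median ratio rescaling and 1166 after quantile normalization, and between those of K-NAA 0, 381 and 435; shared genes were not counted. TPM does not show how many reads a value rests on.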
